A study of Mus musculus with 17 samples.

Results

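AMP-activated protein kinase (AMPK) is assembled from 3 kinds of subunit, and its genes were followed here together with the kinases that switch it on. The set was defined by gene name, and it was picked with earlier results of these data known: the catalytic alpha subunits Prkaa1 and Prkaa2, the beta subunits Prkab1 and Prkab2, the gamma subunits Prkag1, Prkag2 and Prkag3, and the upstream kinases Stk11 (LKB1) and Camkk2. All 9 were found among the 19938 genes tested, each with a single probe set, so no choice between probe sets was needed.

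AMPK senses falling cellular energy. The alpha subunit carries the kinase, the beta subunit holds the complex together and binds glycogen, and the gamma subunit binds AMP, ADP and ATP. LKB1 phosphorylates the alpha subunit in its activation loop, as does CaMKK2 when calcium rises, and active AMPK in muscle favours glucose uptake and fatty acid oxidation and restrains anabolic pathways. The kinase is regulated largely by phosphorylation and nucleotides, neither of which an RNA measurement shows.

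RNA was measured in skeletal muscle of 17 male wildtype C57BL/6N mice aged 5 to 6 months, with 1 array per mouse. In the control group (Con,SD, n = 7) the mice ate standard chow, after mock injection with citrate buffer according to the labels. The diabetic group (STZ,SD, n = 5) ate the same chow after 65 mg/kg streptozotocin on each of 5 days, which destroys the insulin-producing beta cells and leaves the mice short of insulin. The treated group (STZ,BEZ, n = 5) received streptozotocin and, from 2 weeks later, chow with 0.25% or 0.5% bezafibrate for 8 weeks. Bezafibrate activates the peroxisome proliferator-activated receptors (PPARs), and the strength each mouse ate is not given in the labels. The study's methods differ from the labels in giving a lower streptozotocin dose, the higher bezafibrate strength alone and untreated controls. The sources used here do not name the muscle.

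Values are log2 RMA signals, so a difference of 1 is a doubling, and signals were compared between arrays and not between genes. Differences were tested with limma in 1 fit of the 17 arrays, and a gene was called when its Benjamini-Hochberg adjusted p over all 19938 genes was under 0.1. The 10 skeletal muscle markers lay between 11.24 and 14.09 on all arrays. Array 1 of Con,SD carried hepatocyte and testis markers, at mean levels of 11.78 and 8.98 on the log2 scale, and leaving it out ended no call among the 9 genes. The mean of 13 hepatocyte markers had a median over arrays of 8.75 in the controls, 8.51 in STZ,SD mice and 8.09 in STZ,BEZ mice. Of the 13, 6 were called lower in STZ,BEZ than in Con,SD, beside 8.45% of all genes. Arrays 2 and 3 of STZ,SD correlated at 0.996 with each other and at 0.988 to 0.992 with the other 3 of their group, over all genes. Called results that lost their call or moved by over 1.5 times without these 2 arrays are given both ways. In a piece of whole muscle, fewer cells of a type cannot be told apart from less RNA per cell.

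Prkab2 was the one gene of the set called between STZ,SD and Con,SD, and it was lower in the diabetic mice. In STZ,BEZ against Con,SD it was called lower again, and Stk11 was called slightly higher. The other 7 genes were called in neither comparison. Against STZ,SD, STZ,BEZ had 0 of the 9 called by limma and 0 by significance analysis of microarrays (SAM). Likewise 0 of the 9 had an unadjusted limma p under 0.05. Over all 19938 genes, limma called 0.0201% in this comparison and gave 1134 an unadjusted p under 0.05. The limma counts of 0 are thus near the shares over all genes. The share that SAM called over all genes is not given here, so its count of 0 has no share beside it.

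**Figure D1:**
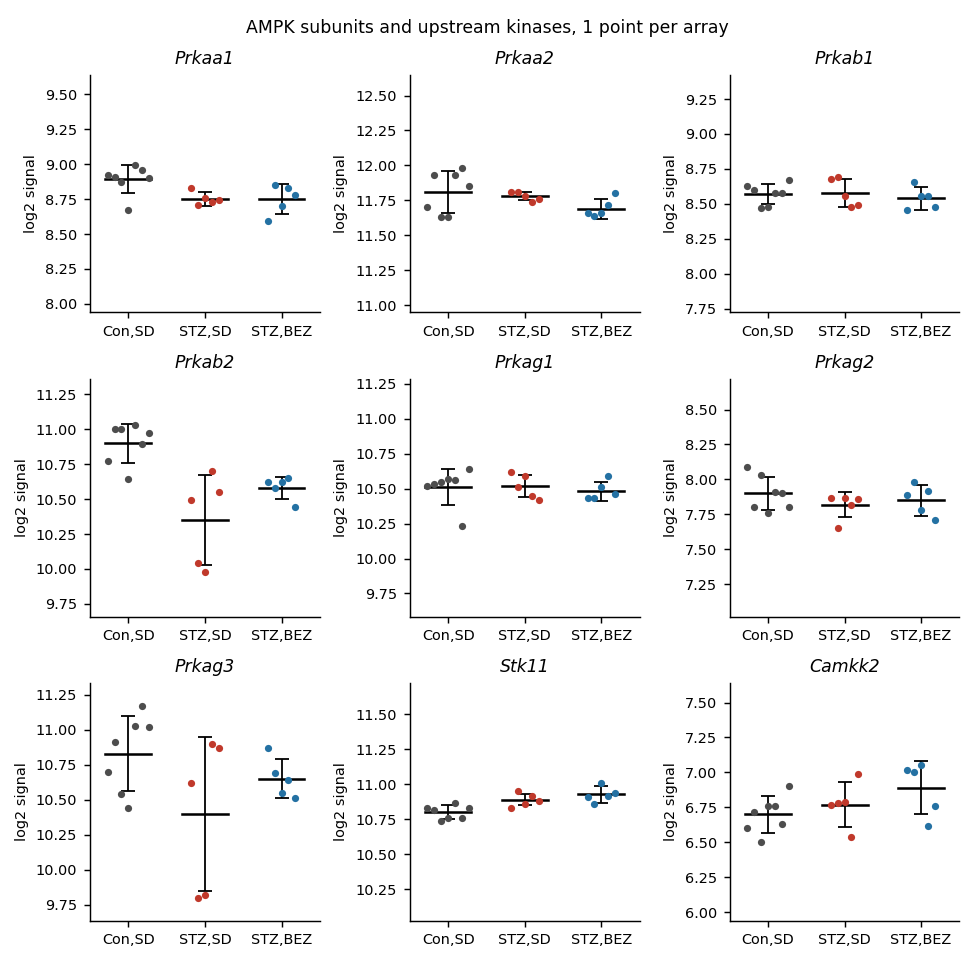
Log2 signal of the 9 genes in Con,SD (n = 7), STZ,SD (n = 5) and STZ,BEZ (n = 5), with 1 point per array, the group mean as a horizontal line and the SD as bars. Each panel spans the same range of log2 units on an axis that does not start at 0. Prkab2 and Prkag3 spread most within STZ,SD, and in both the lowest 2 points are arrays 2 and 3.

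Prkab2 encodes beta 2, the beta subunit known to prevail in skeletal muscle, and Prkag3 encodes gamma 3, known from fast glycolytic fibres. Both had their lowest values on the same 2 diabetic arrays. For that reason the 250 bases before an annotated transcript start of each are shown, from RefSeq on the mouse build GRCm38.p6. They lie at chr3:97657962-97658211 on the plus strand for Prkab2 and chr1:74748956-74749205 on the minus strand for Prkag3. The Prkag3 window lies within the span of the gene, chr1:74738922-74749471, so it precedes a start inside that span. Sequence before the outer end of Prkag3 was not searched. Lower case is sequence without a match, and capitals mark matches on either strand to the motifs searched.
Prkab2: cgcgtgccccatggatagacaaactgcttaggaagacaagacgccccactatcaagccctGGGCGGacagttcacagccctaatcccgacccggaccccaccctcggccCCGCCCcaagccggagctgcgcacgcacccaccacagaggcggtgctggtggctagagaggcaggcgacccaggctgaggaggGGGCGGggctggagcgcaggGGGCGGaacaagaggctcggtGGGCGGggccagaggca
Prkag3: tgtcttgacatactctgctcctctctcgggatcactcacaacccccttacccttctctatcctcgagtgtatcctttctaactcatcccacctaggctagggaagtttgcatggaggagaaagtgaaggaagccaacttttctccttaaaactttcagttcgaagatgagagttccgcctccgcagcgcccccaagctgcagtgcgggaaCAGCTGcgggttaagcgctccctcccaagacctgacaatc

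The motifs were the GC box GGGCGG, the E-box CAGCTG, the forkhead motif TGTTTAC, the nuclear receptor half-site AGGTCA and the TATA motif TATAAA. Their shares among 32851 promoters of this length were 32.7%, 13.0%, 3.17%, 14.0% and 12.4%. The Prkab2 window held 5 GC boxes and no other match. The Prkag3 window held 1 match, an E-box that starts at position -40 from the transcript start used, which lies inside the span of the gene. The 2 windows thus had no motif in common among those searched. These are matches of letters and not shown binding sites.

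Among the catalytic subunits, neither gene was called in any comparison. Prkaa1 (alpha 1, the widespread form) ranged in Con,SD from 8.67 through a median of 8.91 to 8.99. In STZ,SD it was 8.83, 8.71, 8.76, 8.73 and 8.74, and in STZ,BEZ 8.59, 8.85, 8.70, 8.83 and 8.78. Every STZ,SD value lay below 6 of the 7 controls, and the control array 4 at 8.67 lay below them all.

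The difference for Prkaa1 between STZ,SD and Con,SD was -0.13 ± 0.06 (SE) with a limma adjusted p of 0.13. Leaving out Con,SD array 4 gave -0.17, which was called. In STZ,BEZ against Con,SD it was -0.14 ± 0.06 with a limma adjusted p of 0.126, and without Con,SD array 4 it was -0.18, which was called. Array weights also gave a call in each comparison, at -0.15 in both, and a second quantile normalisation gave one in STZ,BEZ against Con,SD at -0.17.

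Prkaa2 encodes alpha 2, the form known to prevail in muscle. It ran from 11.63 to 11.98 in Con,SD with a median of 11.85. It lay between 11.74 and 11.81 in STZ,SD and between 11.64 and 11.80 in STZ,BEZ, so both diabetic groups sat inside the control range. The difference was -0.03 ± 0.07 between STZ,SD and Con,SD and -0.11 ± 0.07 between STZ,BEZ and Con,SD. For the first of these the 95% interval ran from -0.17 to 0.11, and the second was -0.16 ± 0.06 and called with array weights.

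Of the beta subunits, Prkab2 was called and Prkab1 was not. Prkab1 (beta 1, chr5:116013586-116024503) had a mean of 8.57 in the controls, 8.58 in STZ,SD mice and 8.54 in STZ,BEZ mice. Its groups overlapped throughout, and the difference between STZ,SD and Con,SD was 0.01 ± 0.06 with a 95% interval from -0.11 to 0.13.

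Prkab2 (chr3:97658211-97673812) ranged in Con,SD from 10.64 through a median of 10.97 to 11.03, with a mean of 10.90 ± 0.14 (SD, n = 7). The STZ,SD arrays 1 to 5 read 10.49, 10.04, 9.98, 10.70 and 10.55, a mean of 10.35 ± 0.32 (SD, n = 5). The STZ,BEZ arrays read 10.62, 10.58, 10.62, 10.65 and 10.44, a mean of 10.58 ± 0.08 (SD, n = 5). In each diabetic group 4 of the 5 values lay below every control, and the remaining value exceeded only the lowest control.

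Prkab2 was 1.46-fold lower in STZ,SD than in Con,SD, a log2 difference of -0.55 ± 0.11 (SE) with a limma adjusted p of 0.00216. Of all genes tested, 11.9% were called lower in this comparison and 25.8% were called in all, so 1 of 9 is a smaller share than in the whole table. With STZ,SD arrays 2 and 3 left out the difference was -0.32 ± 0.09, still called. It was called under every alternative run, with values from -0.63 to -0.32.

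In STZ,BEZ, Prkab2 was 1.25-fold lower than in Con,SD, at -0.32 ± 0.11 with a limma adjusted p of 0.0599. Of all genes, 8.45% were called lower in this comparison, 13.1% higher and 21.6% in all, beside 2 of 9 in the set. This call was lost when Con,SD array 3 or STZ,BEZ array 2 or 5 was left out, with differences of -0.30, -0.32 and -0.28. It was also lost with median centring and with the fast fibre markers as a covariate, at -0.30 in both. The same held with the mean of 8 slow fibre markers as a covariate, at -0.21 ± 0.10. With the replicate number as a block it was -0.31 ± 0.14, not called. In all, 7 of 31 alternatives lost the call.

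Prkab2 differed between STZ,BEZ and STZ,SD by 0.23 ± 0.12 with a 95% interval from -0.02 to 0.48 and a limma adjusted p of 0.911. Of all genes 0.0201% were called in this comparison, all of them higher, and 0% were called lower. Without STZ,SD arrays 2 and 3 the difference was 0.00076 ± 0.09. Those 2 arrays hold the lowest STZ,SD values and were picked after seeing the data, so leaving them out could only lower the difference. The remaining STZ,SD values of 10.49, 10.70 and 10.55 overlapped the STZ,BEZ values.

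**Figure D2:**
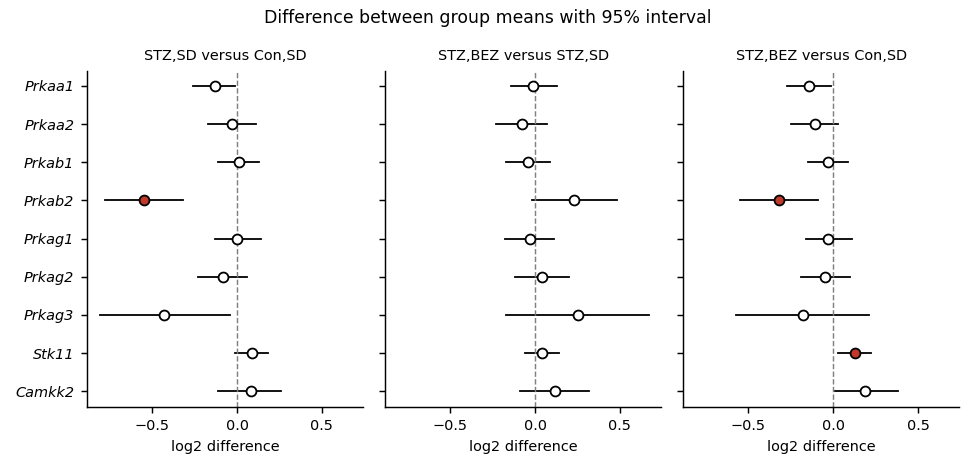
Log2 difference between group means (points) with its 95% interval from limma (lines) for the 9 genes in the 3 comparisons, with filled points for adjusted p under 0.1. Prkab2 is filled in both comparisons with Con,SD, at -0.55 and -0.32, Stk11 in STZ,BEZ against Con,SD at 0.13, and no gene is filled in STZ,BEZ against STZ,SD.

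Among the gamma subunits, no gene was called in any comparison. Prkag1 encodes gamma 1, the widespread form, and its means were 10.51, 10.52 and 10.48 in Con,SD, STZ,SD and STZ,BEZ. The 95% interval of the difference between STZ,SD and Con,SD ran from -0.13 to 0.14. Prkag2 encodes gamma 2, known from heart, and its means were 7.90, 7.82 and 7.85, with a difference of -0.08 ± 0.07 between STZ,SD and Con,SD.

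Prkag3 (chr1:74738922-74749471) varied more between mice than any other of the 9 genes within Con,SD and within STZ,SD. In Con,SD it ran from 10.44 through a median of 10.91 to 11.17. The STZ,SD arrays 1 to 5 read 10.62, 9.80, 9.82, 10.90 and 10.87, and the STZ,BEZ arrays 10.87, 10.69, 10.55, 10.64 and 10.51. Arrays 2 and 3 of STZ,SD stood below all other 15 arrays, and the other 3 of that group lay inside the control range.

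The Prkag3 difference between STZ,SD and Con,SD was -0.43 ± 0.19 with a limma adjusted p of 0.119. Without STZ,SD arrays 2 and 3 it was -0.03 ± 0.14, and between STZ,BEZ and STZ,SD it turned from 0.25 ± 0.20 to -0.15 ± 0.15. In the other direction, it was called when Con,SD array 4 (-0.49), STZ,SD array 4 (-0.55) or STZ,SD array 5 (-0.54) was left out. SAM and the fit without the 30% dimmest genes also called it, at -0.43.

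**Figure D3:**
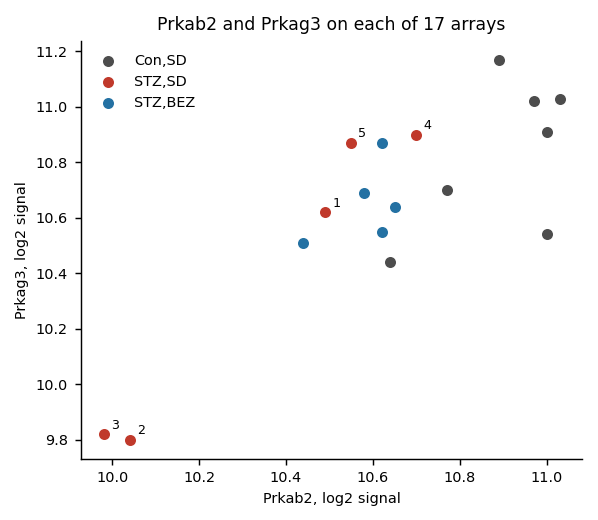
Log2 signal of Prkab2 (x axis) and Prkag3 (y axis) on each of the 17 arrays, coloured by group, with STZ,SD arrays numbered. STZ,SD arrays 2 and 3 lie at 10.04 and 9.98 for Prkab2 and at 9.80 and 9.82 for Prkag3, below all the others on both axes.

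Other measures moved on the same 2 arrays. The mean log2 level of the 6 fibroblast markers was 8.72 and 8.86 on STZ,SD arrays 2 and 3, against 9.68 to 9.83 on the other 3 of the group and 9.32 to 9.70 in Con,SD. The mean over 7 macrophage and leukocyte markers was 6.94 and 6.87, against 7.15 to 7.60 in the rest of the group and 7.04 to 7.41 in Con,SD. The fast fibre markers differed little, at 13.31 and 13.39 against 13.35 to 13.43.

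On the same 2 arrays the mean of 8 endothelial markers was 9.09 and 9.17, against 8.91 to 9.07 on the other 3. The slow fibre mean was 9.69 on both, against 10.15, 7.26 and 6.94 on arrays 1, 4 and 5, so it did not set the pair apart. The part of these cell types in the Prkab2 and Prkag3 values was not tested.

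Fibre type markers were also read beside the subunits. The mean of 8 slow fibre markers spanned 6.81 to 9.52 among controls, 6.94 to 10.15 among STZ,SD mice and 8.64 to 10.46 among STZ,BEZ mice. By group, the median array lay at 7.84 for controls, 9.69 for STZ,SD mice and 8.97 for STZ,BEZ mice. Taken over the 8 markers, the median log2 difference from controls was 0.62 for STZ,SD mice and 1.14 for STZ,BEZ mice. It was 0.49 between the 2 diabetic groups, higher with bezafibrate. Of the 8, 0 were called by limma in any comparison. With ranges this wide between mice, 0 calls do not show an unchanged slow fibre level. An unadjusted limma p under 0.05 was found for 0 in STZ,SD against Con,SD, 0 in STZ,BEZ against STZ,SD and 2 in STZ,BEZ against Con,SD. Over all 19938 genes these counts were 6411, 1134 and 5898. Of the 10 fast fibre markers, 2 were called lower in each diabetic group than in Con,SD. Over all genes 11.9% were called lower in STZ,SD and 8.45% in STZ,BEZ. With that slow fibre mean entered as a covariate, Prkab2 was still called between STZ,SD and Con,SD at -0.49 ± 0.10, and Prkag3 was -0.33 ± 0.16, not called. In STZ,BEZ against Con,SD, Prkag3 moved from -0.18 ± 0.19 to 0.02 ± 0.17 with that covariate.

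Within an array, the distance between 2 isoforms of a subunit does not depend on the overall brightness of the array. The distance is meaningful between groups only, since probe sets of different genes have no common scale. Prkab2 minus Prkab1 averaged 2.33 ± 0.14 (SD) in the controls, 1.77 ± 0.38 in STZ,SD mice and 2.04 ± 0.09 in STZ,BEZ mice. The group means of STZ,SD and STZ,BEZ were thus 0.56 and 0.29 lower than in Con,SD on the log2 scale, and without STZ,SD arrays 2 and 3 the first shift was -0.30.

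The alpha and gamma pairs overlapped between all groups, as did the beta pair. Prkaa2 minus Prkaa1 averaged 2.92 ± 0.11 (SD) in the controls, 3.02 ± 0.05 in STZ,SD mice and 2.95 ± 0.11 in STZ,BEZ mice. Prkag3 minus Prkag1 averaged 0.32 ± 0.35 in the controls, -0.11 ± 0.60 in STZ,SD mice and 0.17 ± 0.18 in STZ,BEZ mice. For that pair the shift between STZ,SD and Con,SD was -0.43 with all arrays and -0.01 without STZ,SD arrays 2 and 3. These distances are descriptions and were not tested.

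**Figure D4:**
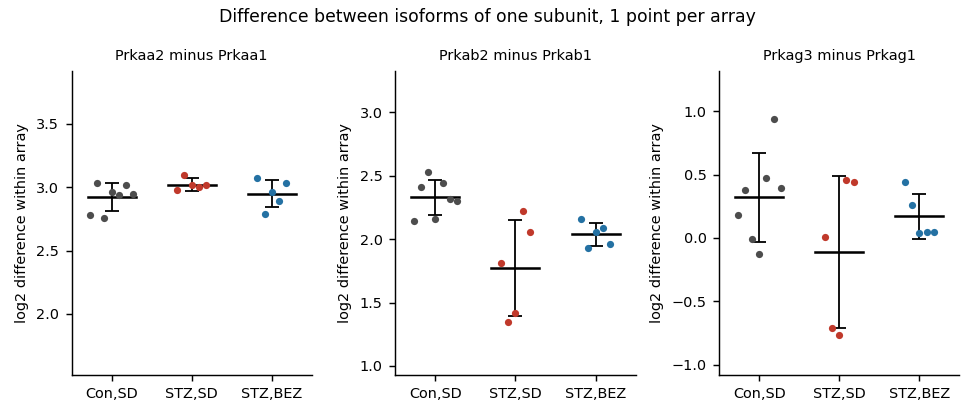
Log2 signal of one isoform minus that of the other on the same array, for the alpha, beta and gamma pairs, with 1 point per array, the group mean as a line and the SD as bars. Each panel spans the same range of log2 units. The beta pair had means of 2.33, 1.77 and 2.04 in Con,SD, STZ,SD and STZ,BEZ.

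Of the upstream kinases, Stk11 encodes LKB1, the main kinase acting on AMPK in muscle (chr10:80115767-80130679). In Con,SD it ran from 10.74 through a median of 10.82 to 10.87. In STZ,SD it was 10.83, 10.95, 10.86, 10.92 and 10.88, and in STZ,BEZ 10.91, 10.86, 11.01, 10.92 and 10.94. In STZ,BEZ 4 of the 5 values lay above every control, and in STZ,SD 3 of 5 did.

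Stk11 was 1.09-fold higher in STZ,BEZ than in Con,SD, at 0.13 ± 0.05 with a limma adjusted p of 0.0705. Leaving out Con,SD array 3 or 4 or STZ,BEZ array 3, 4 or 5 ended the call, with values from 0.10 to 0.13, and SAM did not make it. In all, 11 of 31 alternatives lost it, among them the hepatocyte level as a covariate, where it was 0.14. Between STZ,SD and Con,SD the difference was 0.09 ± 0.05 with a limma adjusted p of 0.19, beside 13.9% of all genes called higher there. The 2 comparisons with Con,SD share the 7 control arrays and are not independent.

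Camkk2 encodes the calcium-dependent kinase of AMPK (chr5:122718380-122779522). Its values in Con,SD ran from 6.50 through a median of 6.72 to 6.90. In STZ,SD it read 6.77, 6.78, 6.79, 6.54 and 6.99, and in STZ,BEZ 7.02, 7.00, 7.05, 6.62 and 6.76. In STZ,BEZ 3 of 5 values lay above all controls, while the other 2 lay inside the control range.

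The Camkk2 difference between STZ,BEZ and Con,SD was 0.19 ± 0.09 with a limma adjusted p of 0.153, not called. SAM called it, as did limma when Con,SD array 7 (0.23) or STZ,BEZ array 4 (0.26) was left out. Compared with STZ,SD it was 0.12 higher, with a 95% interval from -0.09 to 0.32.

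The genes most like a member over the 17 arrays were listed for the 3 members with the smallest adjusted p between STZ,SD and Con,SD, by Pearson's r across all arrays as a description. For Prkab2 these were Narf (0.973), Gid4 (0.966) and the muscle histone methyltransferase Smyd1 (0.964). For Prkag3 they were Styx (0.969), Itih5 (0.945) and Nudt4 (0.941), and for Prkaa1 they were Vti1a (0.867), Cript (0.864) and Cbwd1 (0.863). The arrays differ by group and include the 2 low arrays of STZ,SD, which every such r shares.

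Genes around AMPK were read in 5 lists. Between STZ,SD and Con,SD, 18 of 30 measured direct substrates were called, 14 higher and 4 lower, beside 25.8% of all genes. The median difference over the 30 was 0.12, against -0.009 over all genes. With the fast fibre covariate 11 of the 30 were called, and without STZ,SD arrays 2 and 3 it was 13. The shares of all genes called in those fits are not given, so these counts cannot be set against the 25.8%.

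Tbc1d4 (AS160), which holds GLUT4 vesicles back until it is phosphorylated, ran from 7.95 through a median of 8.16 to 8.50 in Con,SD. In STZ,SD it read 9.73, 9.79, 10.11, 8.70 and 9.36, and in STZ,BEZ 8.92, 9.34, 8.80, 9.56 and 9.80. Neither diabetic group overlapped the controls. It rose 2.57-fold in STZ,SD, at 1.36 ± 0.20 with a limma adjusted p of 0.000196, and by 1.11 ± 0.20 in STZ,BEZ.

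Acacb, the mitochondrial acetyl-CoA carboxylase that AMPK inhibits, ran from 10.32 through 10.38 to 10.48 in Con,SD. In STZ,SD it was 10.72, 11.09, 11.15, 10.66 and 10.68, and in STZ,BEZ 10.65, 10.85, 10.75, 10.86 and 11.00. Here too no diabetic value reached down to the controls. Acacb rose by 0.47 ± 0.09 in STZ,SD (limma adjusted p = 0.00106) and by 0.43 ± 0.09 in STZ,BEZ (limma adjusted p = 0.00287). Without STZ,SD arrays 2 and 3 the rise in STZ,SD was 0.30 ± 0.07, still called.

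Other substrates called higher in STZ,SD included Irs1, the insulin receptor substrate (0.91), the transcription factor Foxo3 (0.77), the histone deacetylase Hdac7 (0.36) and Ulk1, which starts autophagy (0.30). Ulk1 was 0.14 without STZ,SD arrays 2 and 3 and 0.28 with the fast fibre covariate, not called in either. In contrast, Tbc1d1, the relative of Tbc1d4, differed by 0.00 ± 0.13, and the coactivator Ppargc1a (PGC-1 alpha) by 0.05 ± 0.07. Neither of these 2 was called in any of the 3 comparisons, though with each gene's probe sets averaged Ppargc1a was 0.24 ± 0.08 and called in STZ,BEZ against Con,SD, where it was 0.12 as reported.

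In STZ,BEZ, 16 of the 30 substrates were called against Con,SD, 14 higher and 2 lower, with a median difference of 0.18, beside 13.1% of all genes called higher and 8.45% lower. Irs1 (1.11), Srebf1 (0.88), Foxo3 (0.62) and Ulk1 (0.31) were higher. Against STZ,SD a single substrate was called. Srebf1, the transcription factor SREBP1 of fatty acid synthesis, read 8.51, 8.49, 8.28, 9.12 and 8.77 in STZ,SD and 9.97, 9.97, 9.73, 9.70 and 9.60 in STZ,BEZ.

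These Srebf1 values did not overlap, and the rise was 1.16 ± 0.13 with a limma adjusted p of 0.000732. It is 1 of the 4 genes called in the whole table in that comparison. Acaca, the cytosolic acetyl-CoA carboxylase, differed by 0.56 ± 0.13 with a limma adjusted p of 0.355 and was called by SAM. Tbc1d4 (-0.25 ± 0.22), Acacb (-0.04 ± 0.09), Ulk1 (0.01 ± 0.10), Tbc1d1 (-0.12 ± 0.14) and Ppargc1a (0.07 ± 0.07) were not called between STZ,BEZ and STZ,SD.

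Of 12 AMPK-related kinases that LKB1 also activates, 4 were called higher in STZ,SD than in Con,SD and 0 lower, with a median difference of 0.13, beside 13.9% of all genes called higher. They were Nuak1 (0.58), Sik1 (0.58), Sik3 (0.29) and Mark3 (0.19). Nuak1 alone was called without STZ,SD arrays 2 and 3, where Sik1 was 0.41, Sik3 0.19 and Mark3 0.22. Mark3 was also not called without STZ,SD array 1, at 0.18, and lost this call under 4 alternatives in all. In STZ,BEZ against Con,SD, 3 were higher, namely Sik1 (0.72), Sik3 (0.33) and Mark3 (0.18), beside 13.1% of all genes, and the Mark3 call was lost under 13 alternatives.

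Nuak1 was not among these 3. It differed between STZ,BEZ and STZ,SD by -0.45 ± 0.12 with a limma adjusted p of 0.649, and by -0.30 without STZ,SD arrays 2 and 3. In that comparison 0 of the 12 kinases were called by limma or SAM, beside 0.0201% of all genes called by limma. An unadjusted limma p under 0.05 was found for 2 of the 12, beside 1134 of all 19938 genes.

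The list of the LKB1 complex and other upstream regulators had 19 genes measured. Between STZ,SD and Con,SD, 4 were higher and 2 lower, with a median of -0.02, a share near the 25.8% called over all genes. Without STZ,SD arrays 2 and 3, 3 in all were called, as with the fast fibre covariate. The shares of all genes called in those fits are not given. Sesn1, the stress-induced protein sestrin 1, ran from 8.27 through 8.52 to 8.75 in Con,SD. In STZ,SD it read 9.84, 10.84, 10.53, 9.0 and 9.54, and in STZ,BEZ 9.18, 9.36, 9.26, 9.54 and 9.74.

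No diabetic Sesn1 value fell within the control range, and the rise was 1.45 ± 0.22 in STZ,SD with a limma adjusted p of 0.00027 and 0.92 ± 0.22 in STZ,BEZ with 0.0102. Without arrays 2 and 3 the first was 0.96 ± 0.16, still called. Ak1, the muscle adenylate kinase that makes AMP from ADP, was lower in both, at -0.26 and -0.17. Ampd3, an AMP deaminase, was higher in STZ,SD (0.39) and was 0.23 without arrays 2 and 3 and 0.33 with the fast fibre covariate, not called in either.

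In STZ,BEZ against Con,SD, 4 genes of this list were higher and 1 lower, beside 21.6% of all genes called. In all, 3 were called without STZ,BEZ array 2 or 4, with a second quantile normalisation and with the fast or the slow fibre covariate. Shares of all genes called under these alternatives are not given. Sesn3 was higher in STZ,SD (0.19) and STZ,BEZ (0.27). Its call in STZ,SD was lost under 4 alternatives. They were leaving out STZ,SD array 1 (0.16) or 5 (0.18), the hepatocyte covariate (0.17) and the replicate number as a block (0.21). Fnip2, a partner of folliculin, was higher in STZ,BEZ (0.20), and lost its call under 5 alternatives. They were leaving out STZ,BEZ array 2 (0.15) or 4 (0.16), the fast (0.19) or slow (0.17) fibre covariate and the block (0.22).

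The list of adipokine and receptor inputs had 10 genes measured, with 3 called higher and 1 lower between STZ,SD and Con,SD and a median of 0.05, beside 25.8% of all genes called. Leptin (Lep), a product of fat cells, read 6.58 to 8.91 in Con,SD, 5.36 to 6.41 in STZ,SD and 5.50 to 6.28 in STZ,BEZ. Both diabetic groups were called lower, with fitted differences of -1.51 ± 0.32 and -1.41 ± 0.32. Most diabetic values lay below the array medians of 6.22 to 6.32, no detection call was used, and whether they stood above background was not tested, so the size of the fall is not settled. Adipocyte markers, with Lep itself among them, varied between mice. Their mean over 7 genes spanned 8.80 to 10.15 among controls, 8.29 to 9.21 among STZ,SD mice and 8.56 to 9.67 among STZ,BEZ mice. Their median difference from Con,SD was -0.27 in STZ,SD and 0.26 in STZ,BEZ. The part of fat cells in the Lep difference was not tested.

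The leptin receptor Lepr rose by 0.56 in STZ,SD and 0.59 in STZ,BEZ, and the adiponectin receptor Adipor1 by 0.17 and 0.18. Lepr ran from 5.70 to 6.04 in Con,SD, below the array medians of 6.22 to 6.32. Whether those values stood above background was not tested, so the size of the Lepr rise is not settled. Il6ra, the interleukin 6 receptor, read 7.87, 9.30, 8.67, 7.43 and 7.38 in STZ,SD against 6.88 to 7.39 in Con,SD. Its difference of 0.92 ± 0.25 became 0.35 ± 0.15 without arrays 2 and 3 and 0.75 with the fast fibre covariate, not called in either. Of the 8 endothelial markers, 4 were called higher in each diabetic group than in Con,SD. Over all genes 13.9% were called higher in STZ,SD and 13.1% in STZ,BEZ. The part of these markers in the Lepr difference was not tested.

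Muscle genes whose expression is known to follow AMPK activity had 12 members measured, of which 4 were higher and 3 lower between STZ,SD and Con,SD, with a median of 0.10, beside 25.8% of all genes called. Pdk4, which shuts pyruvate out of oxidation, rose by 1.01 ± 0.15, and the fatty acid transporter Cd36 by 0.52 ± 0.12, or 0.34 ± 0.12 without STZ,SD arrays 2 and 3. Nrf1 (nuclear respiratory factor 1) rose by 0.32. Slc2a4 (GLUT4), the insulin-responsive glucose transporter, fell by 0.36, from values of 11.34 to 11.60 in Con,SD to 11.04, 11.35, 11.13, 11.26 and 10.87 in STZ,SD.

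The list did not move in 1 direction. In STZ,BEZ against Con,SD 4 of its genes were higher and 1 lower, beside 21.6% of all genes called, among them Pdk4 (0.65), Cd36 (0.47) and Nrf1 (0.26), with cytochrome c (Cycs) lower at -0.30. Against STZ,SD 0 of the 12 were called by limma or SAM, beside 0.0201% of all genes called by limma. An unadjusted limma p under 0.05 was found for 4 of the 12, beside 1134 of all 19938 genes. Hk2, the hexokinase of insulin-responsive tissue, differed by 0.37 ± 0.11 with a limma adjusted p of 0.778.

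**Figure D5:**
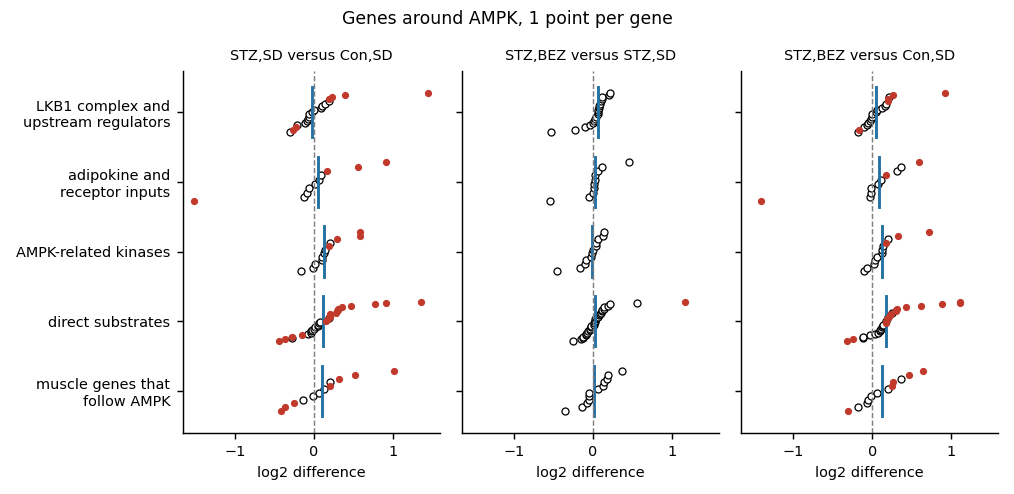
Log2 difference between group means for the genes of 5 lists around AMPK in the 3 comparisons, with 1 point per gene, filled where the adjusted p was under 0.1, and a vertical bar at the median of each list. Filled points lie on both sides of 0 in the comparisons with Con,SD, and a single filled point, Srebf1 at 1.16, appears in STZ,BEZ against STZ,SD.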

How the data were processed

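Total RNA of skeletal muscle was hybridised to Affymetrix Mouse Gene 1.0 ST arrays, which sum many short probes along a transcript. The deposited values are log2 expression values that the authors made with RMA, run in Affymetrix Expression Console 1.2 per the submitters' processing notes. Signals spanned 2.76 to 14.6, and the array medians 6.22 to 6.32. The quantile normalisation in RMA hides any shift of most genes together. Detection p-values and scan dates were not used here, so no batch could be tested, and the number of arrays limits the precision.

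Of 35556 probe sets, 21789 had 1 gene symbol, 1621 several and 12146 none in the platform's probe table. For genes with several probe sets (999) the one with the highest mean was kept. GRCm38.p6 gene and promoter tables gave coordinates and promoter sequences by symbol, since the files name no build, and all 9 genes matched.

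Groups came from the labels, which number the samples of a group as biological replicates but name no litter or batch. All comparisons came from limma 3.58.1 (lmFit, eBayes) in R 4.3.3. SAM was rerun with 100 permutations in an implementation written here. Scripts were tested on simulated data. Alternatives covered centring, a second quantile normalisation, a filter on the 30% dimmest genes, probe set choice, array weights, samples in the fit, marker covariates, a replicate block, SAM and each array left out. The slow fibre covariate and leaving out STZ,SD arrays 2 and 3 together were chosen after seeing the data.

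The text names all 9 members, Acacb, Tbc1d1, Tbc1d4, Ulk1 and Ppargc1a, up to 4 genes per list and comparison with the smallest adjusted p, and the 3 most alike genes for 3 members. Members and lists were chosen with earlier results of these data known. Some listed genes were not analysed here.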

Additional observations from a re-analysis of the deposited data

Results flagged for a closer look

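In 27 gene-by-group sets (9 genes in 3 groups), 3 held a value set apart from the rest by Dixon's ratio, the gap to the nearest value over the range of the group. Chance alone sets apart about 1 in 20 such groups. Prkaa1 in Con,SD array 4 was 8.67, with the nearest control at 8.87 and a ratio of 0.644. Prkag1 in Con,SD array 6 was 10.23, with the nearest control at 10.52 and a ratio of 0.721. Prkag2 in STZ,SD array 2 was 7.65, with the nearest at 7.82 and a ratio of 0.762. Neither Prkab2 nor Prkag3 in STZ,SD was among them; the 2 low arrays there lie close to each other.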

How the results depend on the processing

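The limits are few arrays per group, no batch record and 2 diabetic arrays that stand apart. Prkab2 kept its direction and its call between STZ,SD and Con,SD under all 31 alternatives run. The number of the 9 genes called between STZ,SD and Con,SD, 1 as reported, was 2 with the 30% dimmest genes left out, with array weights and with SAM, and ranged from 1 to 3 over the arrays left out in turn. Between STZ,BEZ and Con,SD, 2 as reported, it was 1 with median centring, with only the compared groups in the fit and with the hepatocyte covariate, 4 with array weights, 0 with the fast fibre covariate and with the slow fibre covariate, and ranged from 0 to 3 over the arrays left out in turn. For STZ,BEZ against STZ,SD it was 0 throughout. The shares of all genes called under the alternatives are not given, so these counts have no share beside them.

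With the replicate number as a block (replicate block), the counts were 1, 0 and 0 of 9. The numbers did not pair the samples, since deviations of same-numbered arrays correlated between -0.239 and 0.083. The distance between Prkab2 and Prkab1 moved to -0.30 between STZ,SD and Con,SD without STZ,SD arrays 2 and 3 and to -0.13 between STZ,BEZ and Con,SD with the slow fibre covariate. The distance between Prkag3 and Prkag1 moved to -0.01 without those 2 arrays.

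Signs turned in values near 0 that were not called. Between STZ,SD and Con,SD, Prkaa2 was 0.03 with a second quantile normalisation and 0.02 with the block, and -0.06 to 0.0011 over the arrays left out in turn. Prkab1 was -0.0016 with a second quantile normalisation, -0.02 with array weights and without STZ,SD arrays 2 and 3, -0.03 with the fast fibre covariate and -0.01 with the slow, and -0.02 to 0.03 over the arrays left out. Prkag1 was -0.01 with array weights, -0.03 with the block, and -0.02 with the slow fibre covariate and without the 2 arrays, and -0.04 to 0.03 over the arrays left out. Tbc1d1 was 0.0076 with median centring, 0.03 with array weights and the fast fibre covariate and 0.0065 with the slow, and -0.08 to 0.11 over the arrays left out, and Ppargc1a was -0.03 without the 2 arrays.

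Between STZ,BEZ and STZ,SD, Prkaa1 was 0.0077 with median centring, 0.0032 with array weights and 0.0087 with the hepatocyte covariate. Over the arrays left out in turn, Prkaa1 ran from -0.03 to 0.03, Prkag2 from -0.0023 to 0.08, Acacb from -0.09 to 0.03 and Ulk1 from -0.05 to 0.10. Without STZ,SD arrays 2 and 3, Prkag3 was -0.15, Acacb 0.13 and Tbc1d4 0.02. Ulk1 was -0.02 with a second quantile normalisation, -0.0072 with the hepatocyte covariate and -0.00077 with the slow fibre covariate. Between STZ,BEZ and Con,SD, Prkab1 was 0.0024 and Prkag2 0.02 with the hepatocyte covariate, Prkag1 0.03 with the fast fibre covariate and Prkag3 0.02 with the slow. Of the other named genes, Ak1 in STZ,BEZ against Con,SD lost its call under 4 alternatives, at -0.12 to -0.17 against -0.17 as reported, and Cycs under 1, each gene's probe sets averaged, at -0.15 against -0.30.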
